A study of Mus musculus with 16 samples.

Results

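Stab1, Cd163, Mrc1, Clec10a and F13a1 are 5 of the 3071 genes listed in the deposited comparison of beta-glucan-treated with control macrophages. They were picked by name because the same comparison showed all of them lower after beta-glucan, so their difference between the groups is described here and not tested. Marrow of aged C57BL/6 mice was cultured for 7 days with M-CSF at 10 ng/mL, which drives marrow progenitors to become macrophages. The 8 beta-glucan libraries, numbered 5, 6, 7, 8, 9, 10, 12 and 13, came from cells given 10 µg/mL beta-glucan of the yeast Candida albicans for 24 hours. The 8 control libraries, numbered 2, 3, 5, 7, 9, 10, 12 and 13, came from cells given PBS. Both groups then rested for 7 days, which makes this an in vitro model of trained immunity read a week after the stimulus. The labels give no genotype beyond the strain, no age in months and no statement that libraries came from separate mice, so p-values reflect spread among these libraries, and part of it may be technical.

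Tissue-resident macrophages clear spent proteins, lipoproteins and cell debris through scavenger receptors and endocytic lectins, which bind a ligand at the surface, carry it to endosomes and often return to the membrane. Stab1, Cd163, Mrc1 and Clec10a are surface receptors of this kind and are widely used to mark resident or alternatively activated macrophages, together with F13a1, which encodes the A chain of coagulation factor XIII. Beta-glucan of fungal cell walls is sensed by macrophages mainly through the lectin Dectin-1, encoded by Clec7a, and can leave a lasting change in how they respond later, called trained immunity.

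Of the 5 genes, 4 had a promoter in the RefSeq table for GRCm38.p6, which holds 250 bases before to 50 bases after each start; Clec10a had none. The 250 bases before the start are shown for Stab1, Mrc1 and F13a1, the 3 members whose window held a match to the core AGGAAG bound by PU.1, a factor that macrophages need. Each runs 5′ to 3′ on the strand of the gene, at chr14:31168642-31168891 (minus strand) for Stab1, chr2:14229164-14229413 (plus strand) for Mrc1 and chr13:37050245-37050494 (minus strand) for F13a1. Capitals mark the core on either strand, so that CTTCCT is the same match read from the opposite strand.
Stab1: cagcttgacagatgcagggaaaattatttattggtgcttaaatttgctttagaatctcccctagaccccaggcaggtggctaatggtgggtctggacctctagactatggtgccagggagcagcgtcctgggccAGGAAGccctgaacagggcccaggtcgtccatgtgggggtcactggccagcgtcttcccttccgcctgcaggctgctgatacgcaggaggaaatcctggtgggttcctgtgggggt
Mrc1: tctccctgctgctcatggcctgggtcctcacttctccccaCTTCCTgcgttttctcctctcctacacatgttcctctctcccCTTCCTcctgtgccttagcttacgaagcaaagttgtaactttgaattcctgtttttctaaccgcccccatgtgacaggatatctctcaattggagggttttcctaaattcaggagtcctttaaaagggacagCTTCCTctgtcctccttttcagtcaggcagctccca
F13a1: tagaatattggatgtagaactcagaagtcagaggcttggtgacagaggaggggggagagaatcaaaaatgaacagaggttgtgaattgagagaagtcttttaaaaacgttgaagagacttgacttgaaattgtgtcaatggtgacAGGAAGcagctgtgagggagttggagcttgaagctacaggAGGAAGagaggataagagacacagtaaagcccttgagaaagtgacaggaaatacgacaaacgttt
The whole 300-base window held 1 match for Stab1 at position -116 from the start, 3 for Mrc1 at -210, -168 and -36, 3 for F13a1 at -105, -65 and 18, and 0 for Cd163. A second listed start of F13a1, 1031 bases into the gene, had 2 matches. The core is short and occurs in 35.4% of all 32851 promoters of the table. The other motifs searched on both strands had 0 matches in these windows: the MAF site TGCTGAC (4.67% of all promoters), AP-1 TGANTCA (7.81%), C/EBP TTGCNNAA (10.8%), the E-box CACGTG (7.15%) and the TATA box TATAAA (13.6%). A match or its lack in such a window is a description of the letters and not of binding.

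The deposited table lists the genes with the authors' adjusted p under 0.05, which were 17.9% of 17130 genes tested, 11.6% lower and 6.3% higher after beta-glucan. Reads on listed genes came to 4382665 to 5600727 per library, and the values below are the deposited normalized counts unless said otherwise. The edgeR quasi-likelihood fit over the listed genes, with p adjusted over 17130 genes by Benjamini-Hochberg, called 68.7% of the 2738 genes past its count filter, 42.8% lower and 25.9% higher. The median log2 fold change of these genes was -0.41. Of 14 macrophage markers, 6 were listed, of which 3 fell (Csf1r, Adgre1 and Mertk) and 1 rose. Csf1r, the M-CSF receptor, averaged 44301 ± 3192 in beta-glucan and 70874 ± 16817 in control libraries (SD, n = 8 each). Adgre1, encoding F4/80, averaged 21683 ± 1969 in beta-glucan and 32008 ± 5113 in control libraries (SD, n = 8 each). Cd14, the lipopolysaccharide co-receptor, rose, at 7844 ± 1001 in beta-glucan and 5456 ± 1536 in control libraries (SD, n = 8 each; log2 fold change 0.52 ± 0.14, edgeR adjusted p 0.0249), and did not pass without beta-glucan 7, beta-glucan 8 or control 5. RNA came from whole cultures, so fewer cells of a type and less RNA per cell cannot be told apart.

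Stab1 (ENSMUSG00000042286, mm10 chromosome 14, 31139013 to 31168641, minus strand) encodes stabilin-1, a large receptor that takes up modified lipoproteins and cell debris. Its normalized count was lowest at 19152, median 22771 and highest at 28239 in beta-glucan libraries, against 32173, 70426 and 90736 in controls. The groups did not overlap, which held for 7.52% of the 3071 listed genes (for 4.85% in this direction); the lowest controls were 12 and 13, at 32173 and 40701, and the other 6 lay at or above 64963. The group means were 23277 ± 3285 in beta-glucan and 67255 ± 21130 in control libraries (SD, n = 8 each), a log2 fold change of -1.53 ± 0.18 (SE). On the per-length FPKM scale, the mean level ranked 87th of the listed genes in beta-glucan and 21st in control libraries, at 126 ± 17.8 against 364 ± 115. The last 112 bases of the Stab1 gene overlap Nt5dc2 on the opposite strand, and without a stated strand setting reads there cannot be told apart; Nt5dc2 itself averaged 1433 in beta-glucan and 1977 in control libraries, well below Stab1.

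Cd163 (ENSMUSG00000008845, chromosome 6, 124304656 to 124330527, plus strand) encodes the receptor for haptoglobin-hemoglobin complexes and is far less abundant in these cells. Its normalized count was lowest at 55.7, median 78.6 and highest at 124.9 in beta-glucan libraries, against 125.0, 269 and 439 in controls. The groups were apart only by the gap between 124.9 in beta-glucan 8 and 125.0 in control 12, with control 13 close by at 131 and the other 6 controls at or above 219. The log2 fold change was -1.55 ± 0.25 (SE, n = 8 each), nearly that of Stab1. The lowest library held 53 reads of Cd163, and the spread between libraries (coefficient of variation 31.9% in beta-glucan and 39.9% in control libraries) was above the 10.7% and 6.23% that counting alone gives.

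Mrc1 (ENSMUSG00000026712, chromosome 2, 14229392 to 14332057, plus strand) encodes the mannose receptor CD206, a C-type lectin that takes up mannose-bearing glycoproteins and microbes. Its normalized count was lowest at 9082, median 12532 and highest at 16368 in beta-glucan libraries, against 12713, 22101 and 29411 in controls. The groups overlapped: control 12, at 12713, lay within the range of the beta-glucan libraries, and 4 of the 8 beta-glucan libraries lay within that of the controls. The log2 fold change was -0.80 ± 0.16 (SE, n = 8 each), the smallest of the 5. The microRNA gene Mir511 lies inside Mrc1 on the same strand and is not among the listed genes.

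Clec10a (ENSMUSG00000000318, chromosome 11, 70156197 to 70170834, plus strand) encodes the galactose-type lectin CD301. Its normalized count was lowest at 85.8, median 124.6 and highest at 248 in beta-glucan libraries, against 141, 343 and 496 in controls. The groups overlapped, but through other libraries than for Mrc1: the low controls were 9 and 10, at 141 and 155, while control 12 stood at 398 and control 13 at 262. The log2 fold change was -1.20 ± 0.26 (SE, n = 8 each). Clec10a has a close paralog in mouse, Mgl2, so its count is uncertain where reads fit both.

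F13a1 (ENSMUSG00000039109, chromosome 13, 36867178 to 37050244, minus strand) encodes the transglutaminase subunit that crosslinks fibrin and is a marker of resident and alternatively activated macrophages. Its normalized count was lowest at 9.90, median 25.6 and highest at 39.5 in beta-glucan libraries, against 61.5, 420 and 520 in controls. The groups did not overlap; controls 12 and 13 stood at 61.5 and 74.4, nearer to the beta-glucan libraries than to the other 6 controls, which lay at or above 312. The log2 fold change was -3.66 ± 0.42 (SE, n = 8 each), the largest fall of the genes in the fit. Beta-glucan libraries held 9 to 41 reads of F13a1, and the spread among them, 37.8%, compares with 19.2% from counting alone. Among controls the highest library was 8.46 times the lowest. F13a1 overlaps the antisense genes Gm49144 and Gm30489, which are not among the listed genes and whose reads cannot be told apart from its own.

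**Figure D1:**
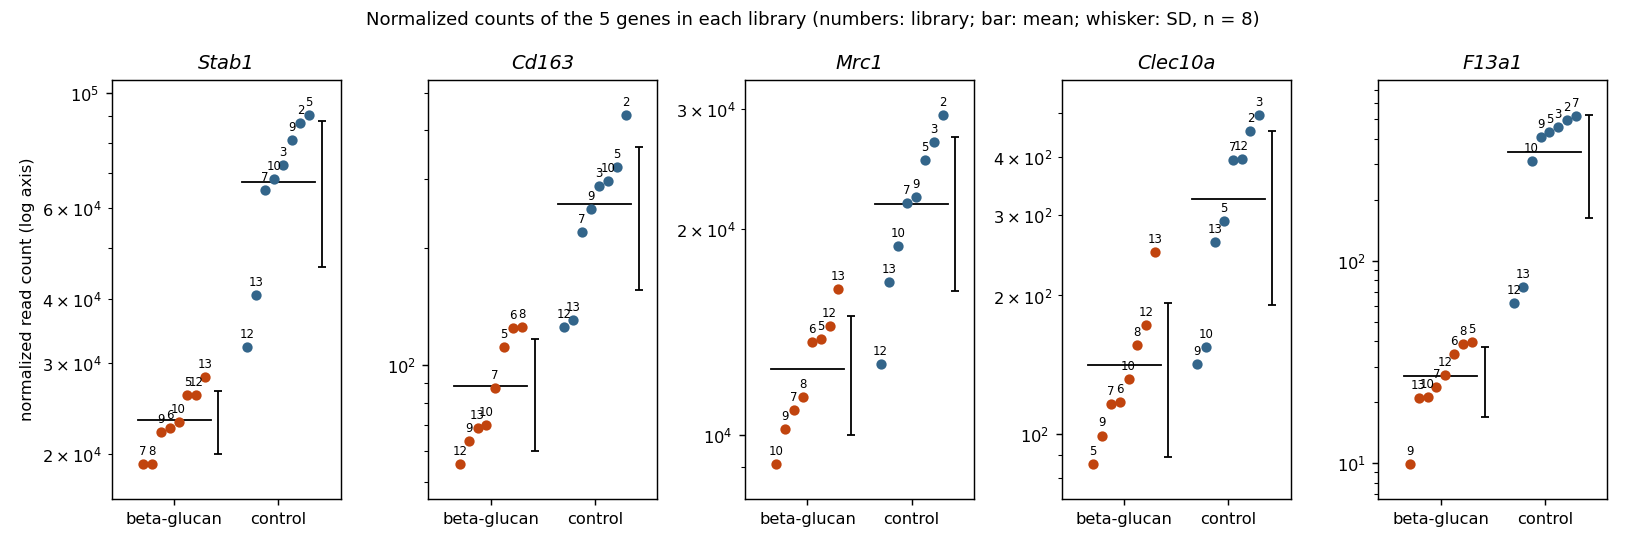
Normalized read count on a log axis of the 5 genes in each of the 8 beta-glucan (left) and 8 control (right) libraries; points carry the library number, bars are means and whiskers SD. Controls 12 and 13 sit at the bottom of their group for Stab1, Cd163, Mrc1 and F13a1, while for Clec10a the bottom controls are 9 and 10.

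On the per-length FPKM scale the order of the 5 genes was Stab1, Mrc1, Clec10a, Cd163 and F13a1 in beta-glucan libraries, with means of 126, 109, 2.71, 0.901 and 0.224 FPKM. The order was kept in all 8 of them. In controls the means were 364, 190, 6.24, 2.64 and 2.85 FPKM in the same order of genes, and F13a1 was above Cd163 in 4 of the 8. Cd163 and F13a1 are therefore not ordered beyond their spread among controls. Stab1 was above Mrc1 in every library of both groups, but by less after beta-glucan. The ratio of their FPKM was lowest at 1.02, median 1.10 and highest at 1.57 in beta-glucan libraries, against 1.51, 1.84 and 2.25 in controls; controls 12 and 13 had 1.57 and 1.51, below the other 6. The ratio of Cd163 to F13a1 was lowest at 2.52, median 4.06 and highest at 7.95 in beta-glucan libraries, against 0.520, 1.01 and 2.51 in controls. Again controls 12 and 13, at 2.51 and 2.17, were the control libraries nearest to the beta-glucan range. The ratios restate the fold changes that chose the genes and carry no test.

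Controls 12 and 13 were the lowest controls for 4 of the 5 genes, clearly apart from the other 6 for Stab1, Cd163 and F13a1, while for Mrc1 control 13 lay nearer to control 10 than to control 12. To compare genes with different levels, each library was placed on a log2 scale on which the mean of the controls is 0 and that of the beta-glucan libraries is 1. Control 12 lay at 0.67 for Stab1, 0.62 for Cd163, 0.93 for Mrc1 and 0.63 for F13a1. Control 13 lay at 0.44, 0.58, 0.43 and 0.55 for the same genes. Clec10a did not follow: control 12 lay at -0.37 and control 13 at 0.15 for it, while controls 9 and 10 lay at 0.93 and 0.82. For the other 4 genes controls 9 and 10 were between -0.24 and 0.20. The 2 libraries were shifted for many genes, since the median position of the other 1168 genes called lower was 0.54 in control 12 (quartiles 0.01 and 1.05) and 0.39 in control 13 (quartiles 0.16 and 0.65). The 4 genes thus lay within the quartiles of the falling genes in both libraries. Clec10a lay below the lower quartile in control 12 and about at it in control 13. Among beta-glucan libraries, number 13 was nearest to the controls for Clec10a, at 0.22, for Mrc1, at 0.47, and for Stab1, at 0.80. Without controls 12 and 13 the log2 fold changes were -1.74 for Stab1, -1.77 for Cd163, -0.95 for Mrc1, -1.19 for Clec10a and -4.00 for F13a1. All but Clec10a then had groups that did not overlap, as did 38.7% of the listed genes.

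**Figure D2:**
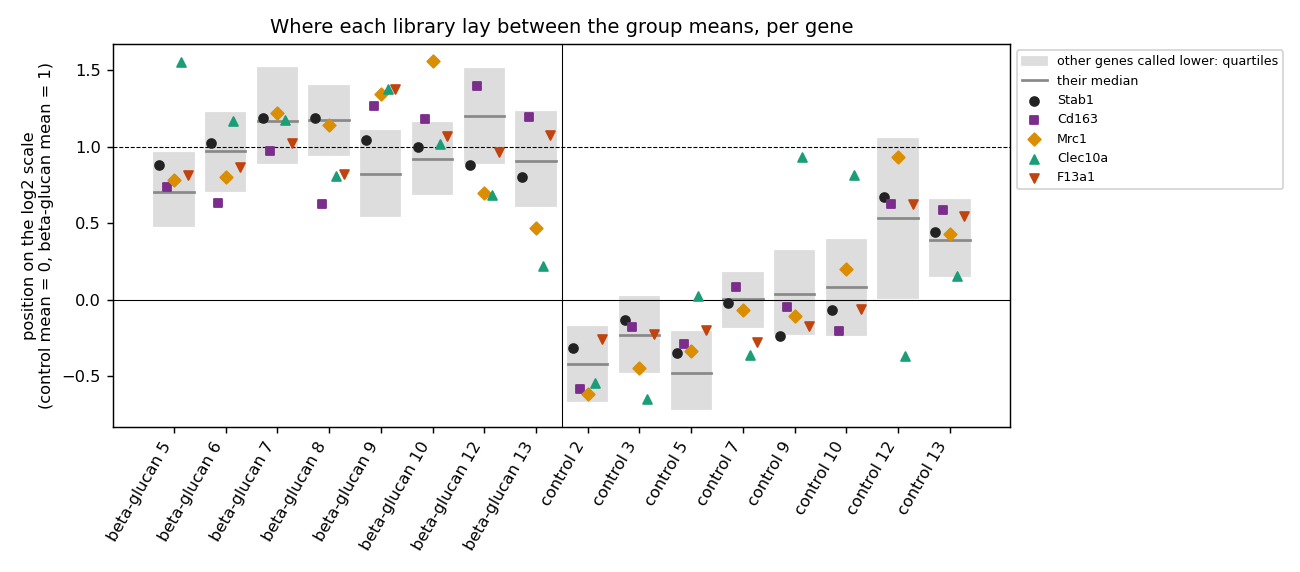
Position of each library (8 beta-glucan left, 8 control right) on a log2 scale with the control mean at 0 and the beta-glucan mean at 1, for the 5 genes (symbols) and for the other 1168 genes called lower (grey boxes: quartiles, line: median). Controls 12 and 13 are raised for Stab1, Cd163, Mrc1 and F13a1 and lie at -0.37 and 0.15 for Clec10a, whose raised controls are 9 and 10.

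Correlations between the genes within a group do not use the difference between groups. They were computed on log2(normalized count + 1) over the 8 beta-glucan libraries and over 6 controls, since controls 12 and 13 lay apart for Stab1, Cd163 and F13a1. The 10 pairs in 2 groups make 20 relations, tested by exact two-sided permutation. None passed Benjamini-Hochberg adjustment (lowest adjusted p 0.417), and 2 had an unadjusted exact p under 0.05. This outcome depends on leaving out controls 12 and 13, a choice made on values of the tested genes. The unadjusted p-values with all 8 controls are given below. Cd163 and F13a1 correlated in beta-glucan libraries, with Pearson's r 0.71 (exact permutation p 0.037) and Spearman's rho 0.69 (exact permutation p 0.069), but r was 0.01 in the 6 controls. Without the 2 libraries farthest from the median of Cd163, r in beta-glucan libraries was 0.56. Clec10a and F13a1 correlated in the 6 controls, with r 0.79 (exact permutation p 0.042) and rho 0.71 (exact permutation p 0.136), against r 0.02 in beta-glucan libraries. Without beta-glucan 5 and 13, the 2 farthest from the median of Clec10a, r in beta-glucan libraries was 0.65. The low value there thus rests on these 2 libraries, and a contrast between the groups is not shown. Without controls 9 and 10, the 2 farthest from the median of Clec10a, r was 0.46 over 4 libraries. That is too few libraries to say whether the relation rests on controls 9 and 10. Stab1 and Mrc1 had similar r in both groups, 0.67 in beta-glucan libraries and 0.64 in controls, and Stab1 and Cd163 had opposite signs, -0.43 in beta-glucan libraries and 0.67 in controls; neither passed, and differences between groups were not tested.

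Over the 10 pairs the median r was 0.20 in beta-glucan libraries, with 7 positive, and 0.64 in the 6 controls, with all 10 positive. As a background, all pairs of 2378 listed genes had a median r of 0.00 in beta-glucan libraries and 0.02 in the 6 controls, and pairs of 1366 lower genes had 0.14 and 0.32. The quartiles for pairs of lower genes were -0.21 and 0.45 in beta-glucan libraries and -0.11 and 0.64 in the 6 controls. The medians over the 10 pairs lay within these quartiles, in the 6 controls close to the upper one. Libraries share depth and scaling, so r among genes is not independent: with TMM-scaled counts the median over the 10 pairs in controls was 0.32. With all 8 controls, r among Stab1, Cd163, Mrc1 and F13a1 ran from 0.87 to 0.94 (exact permutation p 0.0012 to 0.018, not adjusted). Pairs of lower genes over the same 8 controls had a median r of 0.47, with quartiles of 0.05 and 0.75. Without controls 12 and 13 the pairs of F13a1 with Stab1 and with Cd163 had r of 0.15 and 0.01, so those 2 values rest on these libraries, and the other 4 pairs had 0.64 to 0.68. The pairs with Clec10a ran from -0.13 to 0.20 over the same 8 libraries (exact permutation p 0.64 to 0.99, not adjusted).

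**Figure D3:**
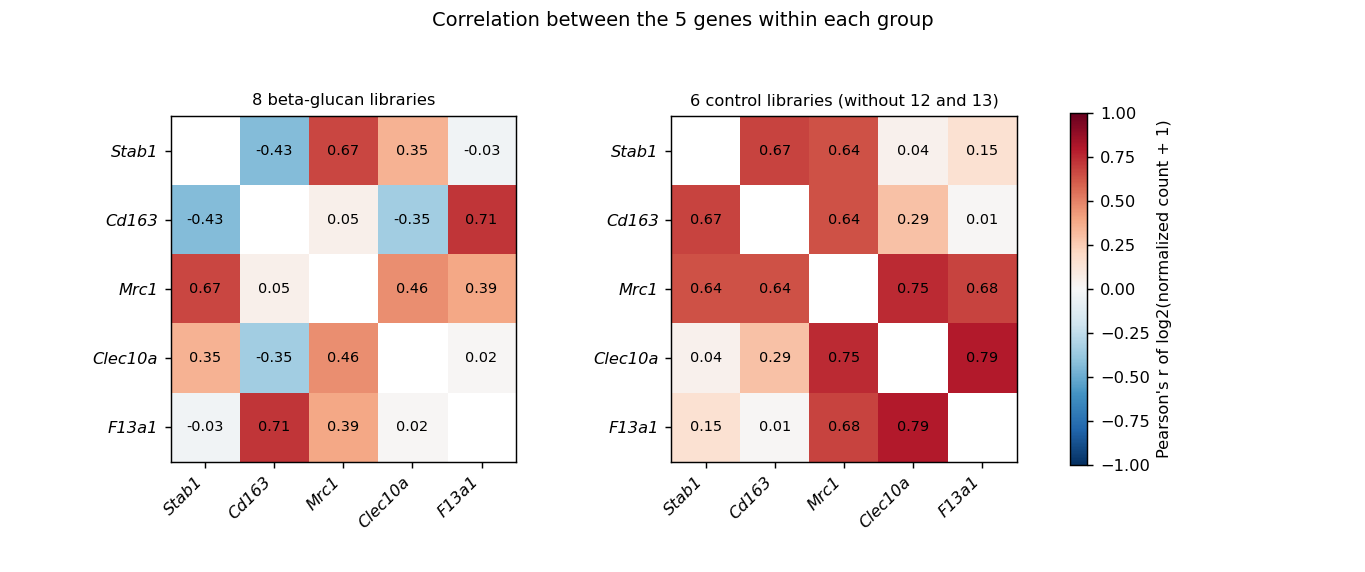
Pearson's r of log2(normalized count + 1) between the 5 genes over the 8 beta-glucan libraries (left) and over 6 controls (right, without 12 and 13). The control panel holds only positive values, 0.01 to 0.79, and the beta-glucan panel runs from -0.43 to 0.71.

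The genes most like each of the 5 were those with the highest mean of the 2 within-group r, among listed genes with a mean of at least 50 normalized counts. For Stab1 these were Usp48, Abca7, Lrp1 and Zc3h11a, with a mean r of 0.88, 0.88, 0.88 and 0.85. For Cd163 they were Iqgap2 (mean r 0.91), Nipbl (0.88), Mertk (0.85) and Man2a2 (0.85), and for Mrc1 Man1a (0.92), Man1c1 (0.92), Lama3 (0.91) and Plod1 (0.89). For Clec10a they were the lectin receptor Clec4a3 (mean r 0.92), Bin2 (0.92), Smagp (0.89) and Fcrl1 (0.84). F13a1 had the weakest neighbours, Sumf1 (0.82), Serinc5 (0.80), Chfr (0.80) and Kctd12 (0.79). Sumf1 followed F13a1 within groups but was higher after beta-glucan, with a log2 fold change of 0.22 in the authors' deposited table. With all 8 controls in place of 6, the list of 4 kept 1 gene for Stab1, 2 for Cd163, 2 for Mrc1, 3 for Clec10a and 0 for F13a1. These are maxima over many genes in 8 and 6 libraries and are given as a description.

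**Figure D4:**
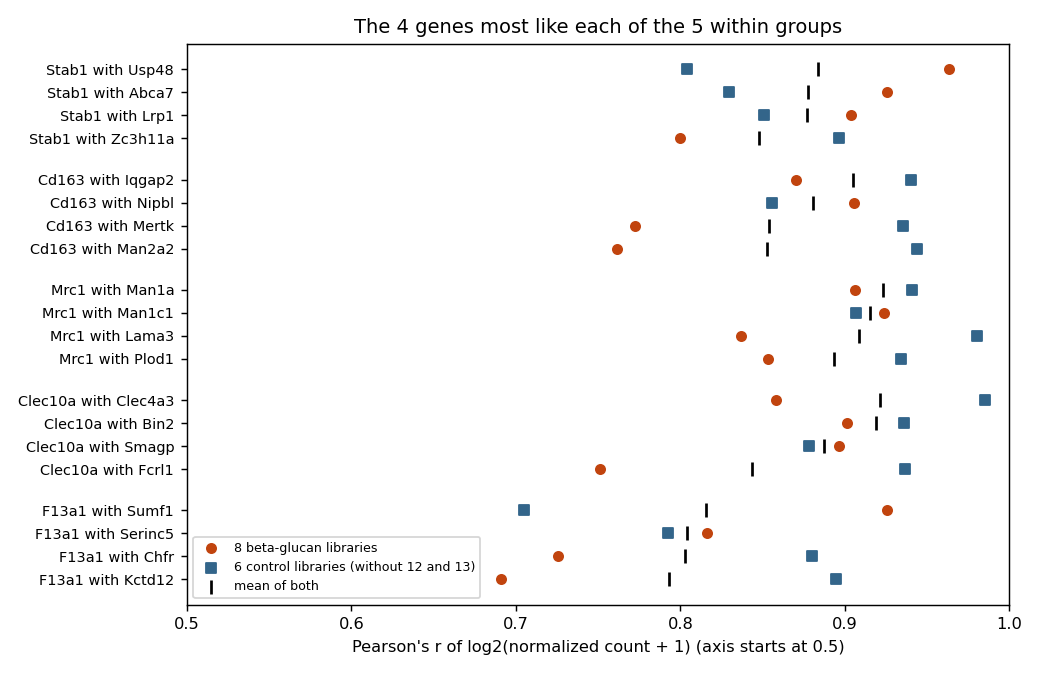
Pearson's r of log2(normalized count + 1) between each of the 5 genes and its 4 most similar listed genes, over 8 beta-glucan libraries (circles) and 6 controls without 12 and 13 (squares), with the mean of both (ticks); the axis starts at 0.5. F13a1 has the lowest mean r, 0.79 to 0.82, and Mrc1 and Clec10a the highest, up to 0.92.

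Other receptors of the same families did not all move the same way. In this and the following lists, listed genes passed the authors' test, as did 17.9% of all genes they tested. Counts that fell or rose are calls of the edgeR fit, which held for 42.8% and 25.9% of its 2738 genes. Of 22 further scavenger receptors, 2 were listed and both fell. Lrp1, which takes up lipoproteins and dying cells, averaged 26694 ± 4426 in beta-glucan and 46950 ± 12521 in control libraries (SD, n = 8 each), a log2 fold change of -0.81 ± 0.15 (edgeR adjusted p 0.00312). Ager, a receptor for glycated proteins, had -2.22 ± 0.60 (edgeR adjusted p 0.0241) at 7.70 ± 10.6 in beta-glucan and 36.6 ± 14.95 in control libraries, and did not pass without control 3.

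Of 39 further C-type lectin and mannose receptor genes, 6 were listed, of which 3 rose and 1 fell. Clec4e, encoding the fungal and mycobacterial glycolipid sensor Mincle, averaged 744 ± 252 in beta-glucan and 356 ± 69.0 in control libraries (SD, n = 8 each; log2 fold change 1.06 ± 0.20, edgeR adjusted p 0.00388). Clec7a, the beta-glucan receptor itself, averaged 6710 ± 889 in beta-glucan and 3743 ± 1738 in control libraries (0.84 ± 0.22, edgeR adjusted p 0.0210), and did not pass without controls 2 and 3. The third that rose was Ly75, the endocytic receptor DEC-205, and the one that fell was Clec4a1. Leaving out single libraries, in 16 fits, lost the call of Ly75 in 11 and that of Clec4a1 in 6. Mrc1 and Clec10a, members of the same family, thus stood lower where Clec4e and Clec7a stood higher. Over leaving out each library the count was 2 or 3 higher and 0 to 3 lower, and over other scalings 3 higher and 0 lower.

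Of 34 further resident-type macrophage genes, 17 were listed, all lower, and 10 of the 16 tested fell. Their median log2 fold change was -0.54. The median was -0.41 over all genes tested, which moved both ways, and -0.67 over the genes called lower. Neither is a like set for a list that was all lower, so a larger fall than in other genes is not shown. Hpgd, which inactivates prostaglandins, averaged 107 ± 29.2 in beta-glucan and 342 ± 101 in control libraries (SD, n = 8 each; log2 fold change -1.67 ± 0.20, edgeR adjusted p 0.000163). Axl, a receptor for dying cells, averaged 556 ± 153 in beta-glucan and 1043 ± 311 in control libraries (-0.91 ± 0.20, edgeR adjusted p 0.00866), and did not pass without controls 2 and 3. Adgre1 (-0.56 ± 0.10, edgeR adjusted p 0.00250) and the iron exporter Slc40a1 (-0.48 ± 0.09, edgeR adjusted p 0.00413) also fell, Slc40a1 not with TMM scaling. The lists were put together with results of these data known, and their counts are no independent support. The number called lower was 4 with TMM scaling, 5 with size factors computed anew, 16 without controls 12 and 13, 16 without control 13 alone, and 4 without controls 2 and 3.

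Of 36 further genes for the clearance of dying cells, 13 were listed, of which 9 fell and 2 rose. Over all genes in the fit 42.8% fell and 25.9% rose. Abca7, a lipid transporter that promotes engulfment, had a log2 fold change of -0.80 ± 0.14 (edgeR adjusted p 0.00238). The bridging molecule Pros1 had -0.58 ± 0.12 (edgeR adjusted p 0.00483) and the lipid receptor Cd300lf -0.83 ± 0.17 (edgeR adjusted p 0.00561). The 2 that rose were the bridging molecule Mfge8, named after its value was seen, and the integrin subunit Itgb3 (0.80 ± 0.19, edgeR adjusted p 0.0107). Without controls 2 and 3 the count was 4 lower and 1 higher, and with TMM scaling 5 lower and 2 higher.

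Of 34 further heme and iron handling genes, 12 were listed, 5 fell and 2 rose. Hfe, which regulates iron uptake, had a log2 fold change of -0.57 ± 0.11 (edgeR adjusted p 0.0040), and Cp, the iron-oxidising ceruloplasmin, had -0.96 ± 0.19 (edgeR adjusted p 0.00445). With TMM scaling the count was 3 lower and 5 higher. Of 37 further endocytosis and receptor recycling genes, 11 were listed, of which 5 fell and 2 rose, but with either other scaling 0 fell and 4 rose. The scaffold Itsn1 (-0.51 ± 0.11, edgeR adjusted p 0.00803) and the clathrin light chain Cltb (0.52 ± 0.11, edgeR adjusted p 0.0083) moved opposite ways.

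Of 44 further genes of coagulation, fibrinolysis and transglutaminases, 5 were listed, 1 rose and 1 fell. Procr, the endothelial protein C receptor, averaged 186 ± 33.4 in beta-glucan and 77.4 ± 26.9 in control libraries (SD, n = 8 each; log2 fold change 1.26 ± 0.20, edgeR adjusted p 0.00133), and Pros1 fell as above. Of 29 further alternative activation genes, 4 were listed, all lower, and 2 fell, Il4ra and Fn1. Those calls did not last: leaving out single libraries gave 0 to 4, TMM scaling 0, and Fn1 had -1.89 ± 0.60 (edgeR adjusted p 0.047).

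Of 43 further transcription regulators, 15 were listed; of 14 tested, 4 fell and 2 rose, with 1 to 9 falling when single libraries were left out. Nr1h3, encoding LXR alpha, rose by 0.73 ± 0.15 on the log2 scale (edgeR adjusted p 0.0052), and Tfec fell by 0.47 ± 0.12 (edgeR adjusted p 0.0155). Of 19 further glucocorticoid-induced genes, 4 were listed, all lower, and 3 fell: Mertk (log2 fold change -0.73 ± 0.17), the clock gene Per1 (-1.19 ± 0.29) and the formyl peptide receptor Fpr1 (-1.22 ± 0.30). Their edgeR adjusted p were 0.0118, 0.0132 and 0.0146, and 0 of them passed without controls 2 and 3.

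**Figure D5:**
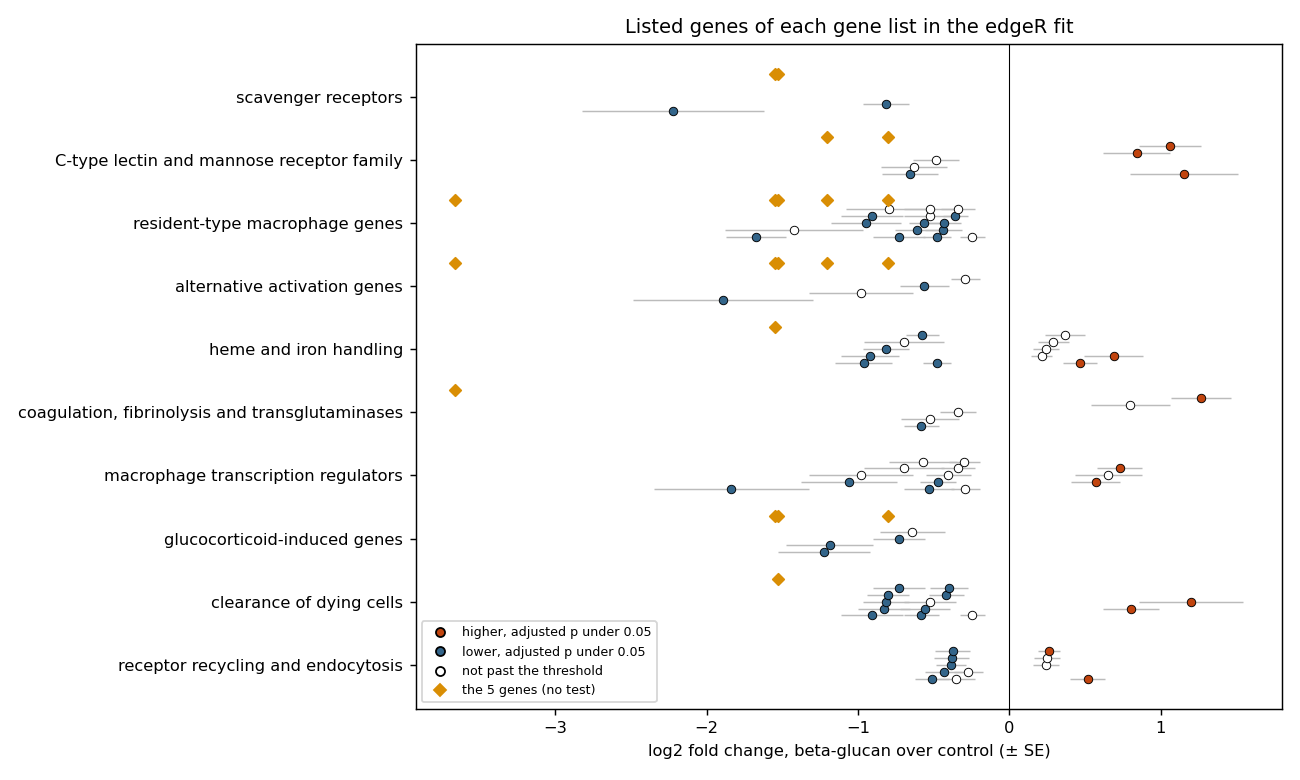
Log2 fold change of beta-glucan over control (± SE) for the listed genes of 10 gene lists in the edgeR fit; filled circles passed an adjusted p of 0.05 (red higher, blue lower) and orange diamonds are the 5 genes, which carry no test. Resident-type genes lie below 0, and the C-type lectins split, with 3 higher and 3 lower.

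Mannose binding, in the authors' deposited table of enrichment, had 8 listed genes of 17 in the term, each of them lower and Mrc1 among them (unadjusted p 0.00443, adjusted p 0.266). Scavenger receptor activity in the authors' deposited table had 5 listed genes of 33, all lower, with Stab1 and Cd163 among them (adjusted p 0.974). Coagulation, the term of F13a1 in the authors' deposited table, had 25 listed genes, 15 lower and 10 higher (adjusted p 0.749).

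Some markers of other cells were also listed, as were 17.9% of all genes the authors tested. Of 12 monocyte markers, 4 were listed, all lower, and 2 passed; their summed normalized count ran from 713 to 2234 in beta-glucan and from 851 to 6661 in control libraries, with control 12 at 1119 and control 13 at 851. Those 2 calls, Fn1 and Treml4, became 0 to 4 when single libraries were left out. Of 10 osteoclast markers, 2 were listed and rose, Itgb3 and Atp6v0d2, with a sum of 4227 to 7479 in beta-glucan and 848 to 5419 in control libraries; controls 12 and 13, at 4334 and 5419, lay within the beta-glucan range. The call of Atp6v0d2 was lost in 13 of the 16 fits without 1 library. Of the other marker lists, dendritic cell and mast cell genes had 0 listed, and neutrophil (Csf3r), lymphocyte (Ighm) and fibroblast (Acta2) lists had 1 each and endothelial 2, of which Csf3r and Ighm fell and the others did not pass. Of 15 immediate-early genes, 6 were listed, 3 fell and 1 rose, and 0 passed without controls 2 and 3. The part of these markers in the values of the 5 genes was not tested.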

How the data were processed

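RNA sequencing covered 16 libraries, 8 beta-glucan and 8 control, per the labels. Per the submitters' processing notes, STAR 2.5, HTSeq 0.6.1, CASAVA and DESeq2 were used with build mm10; annotation release and strand setting: not given in the sources used here. One deposited table holds the authors' read counts, their normalized counts (a signal: the counts divided by 1 size factor per library, 0.864 to 1.16), FPKM values (the deposited normalized counts per kilobase, scaled to 17937135 reads in every library), log2 fold changes by the authors and deposited p-values, raw and adjusted. It lists the 3071 genes with an adjusted p under 0.05 of 17130 tested, and values of unlisted genes are not analysed here. Enrichment tables by the authors give p-values and gene counts per term.

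edgeR 4.0.16 in R 4.3.3 (glmQLFit, glmQLFTest, filterByExpr, two-sided) was fitted to the deposited counts with library sizes from the deposited size factors, because factors from preselected genes are distorted; p was adjusted over 17130 genes. Genes had already passed in the same data, so these tests are optimistic. Effective library sizes were 15492864 to 20738976 reads, and intervals from counting cover counting error only. The step was tested on simulated data. The 5 genes, the gene lists and the tests were chosen with earlier results of these data known. Named genes were the 5, up to 4 of each list by smallest edgeR p, the 2 most abundant of each marker list, and the 4 most similar to each of the 5; exceptions are marked. Correlations and figures used Python 3.11.15 with numpy 2.4.6, pandas 2.3.3, matplotlib 3.10.9 and scipy 1.17.1. Overlaps came from GENCODE M21, whose coordinates match the deposited ones for the 5 genes, and promoters from RefSeq (GRCm38.p6). Alternatives were other scalings, DESeq2 1.42.0, no count filter, the library number as a block, and fits without libraries.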

Additional observations from a re-analysis of the deposited data

Results flagged for a closer look

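Among 70 named genes in 2 groups (140 groups of 8 libraries), 8 had a library whose distance from its nearest neighbour exceeded 0.526 of the group's range; chance alone gives about 1 in 20 groups. None was among the 5 genes. Abca7 was highest in control 5, at 1505 normalized counts, with the next at 1107. Acta2 was highest in beta-glucan 7, at 79.9, with the next at 43.3. Ager was highest in beta-glucan 5, at 31.8. Csf3r was lowest in control 12, at 1629, with the next at 2109. Itgb3 was highest in beta-glucan 12, at 1285, with the next at 1038, and so was Plau, at 25820, with the next at 15177. Kdr was lowest in control 2, at 30.1, with the next at 66.0. Zfp36 was highest in beta-glucan 10, at 5089, with the next at 4132.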

How the results depend on the processing

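The log2 fold changes of the 5 genes stayed negative in all 24 alternative fits, from -1.74 to -1.26 for Stab1, -1.77 to -1.27 for Cd163, -0.95 to -0.54 for Mrc1, -1.37 to -0.92 for Clec10a and -4.00 to -3.36 for F13a1. The genes were picked for being lower in this comparison and the fits reuse its libraries. Their sign was therefore largely set in advance, and only the range of sizes is informative. TMM scaling moved the median of all genes by 0.24 and size factors computed anew by 0.20 on the log2 scale; the share of calls that were higher was 37.7% with the deposited factors, 71.4% with TMM and 67.4% with new factors. The 1882 genes called of 2738 tested became 2942 of 3071 with DESeq2, 629 without controls 2 and 3, and 1150 to 2276 when each library was left out. All listed genes had already passed the authors' DESeq2 test, so the counts with DESeq2 were nearly set in advance. In the lists, 56 of 88 tested genes were called, against 68.7% over all genes tested. The 56 became 86 with DESeq2, 20 without controls 2 and 3, and 35 to 70 when each library was left out, lowest without control 2. Named genes that lost their call include the following: Slc40a1, Pros1, Hfe, Itsn1 and Tfec did not pass with TMM scaling, and Ager, Clec7a, Axl, Mertk, Per1, Fpr1 and Tfec did not pass without controls 2 and 3. The labels do not say that library numbers pair the samples, and not every same-numbered pair had deviations that correlated above 0.1: r was 0.54 for number 5, 0.35 for 13, 0.27 for 12, 0.01 for 7, -0.05 for 10 and -0.15 for 9. Only beta-glucan 5 was closest to the control of its own number; beta-glucan 12 was closest to control 13 and beta-glucan 13 to control 12. The fit with the number as a replicate block over 12 libraries called 355 genes, 21 of them in the lists, and the same 12 libraries with no block, a fit chosen after seeing the data, called 68 and 4. Among genes with printed values, Lrp1, Adgre1, Clec4e, Itgb3 and Cltb did not pass with the block (edgeR adjusted p 0.0612, 0.0950, 0.0684, 0.0694 and 0.0874), nor with the same 12 libraries and no block (0.0884, 0.0811, 0.106, 0.117 and 0.147); Ager, Clec7a, Slc40a1, Hfe, Itsn1, Tfec, Per1, Fn1 and Cd14 did not pass in either fit. The block gave log2 fold changes of -1.31 for Stab1, -1.51 for Cd163, -0.66 for Mrc1, -0.92 for Clec10a and -3.36 for F13a1.

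The median correlation over the 10 pairs was 0.20 in beta-glucan libraries and ran from 0.031 to 0.362 when each library was left out. In the 6 controls it was 0.64, and it was 0.32 with TMM-scaled counts, 0.49 with Spearman's rho, 0.88 with all 8 controls, 0.45 without the 2 libraries farthest from the median, and 0.373 to 0.675 when each library was left out, lowest without control 2. The causes were not tested. Read depth limits F13a1 and Cd163 most, at 9 and 53 reads in the lowest libraries.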
